A study of Mus musculus with 6 samples.

Results

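The genes described here are 10 that encode proteins of the secondary (specific) and tertiary (gelatinase) granules of neutrophils, or enzymes of late granulocytes: Ngp, Ltf, Camp, Lcn2, Fcnb, Cd177, Olfm4, Mmp8, Mmp9 and Padi4. All 10 were found by symbol among the 25751 gene IDs of the count table, and all 10 passed the filter on low counts. They were chosen by function with the difference between the same TMAO and control libraries already known, so their own values are given as a description, without a test. The study compared myeloid cells taken as primary cells from wild-type mice, all at 24 h: 3 libraries were from cells treated with trimethylamine N-oxide (TMAO), a metabolite made in the liver from a product of gut bacteria, and 3 from control cells. Wild-type genotype and the time of 24 h were shared by both groups. The submitters' column names call the treated libraries T-BMDM and the others Control. The labels give no dose, sex, age or number of mice, and do not explain that difference in naming, so a difference in how the cells of the groups were grown cannot be told apart from the treatment. Whether replicate libraries represent different mice or cultures is not stated either, and the spread behind each p-value may therefore be technical. Library totals were 37759007 to 41735109 counts. Levels are given as CPM, a count relative to the library total after scaling by the trimmed mean of M-values. Pearson correlations of log2 CPM over genes were 0.9783 to 0.9854 within groups and 0.8827 to 0.9188 between them.

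Neutrophils form their granules in an order that follows maturation in the bone marrow. Azurophil granules, with myeloperoxidase and serine proteases, are filled at the promyelocyte stage, specific granules with lactoferrin and cathelicidin at the myelocyte and metamyelocyte stages, and gelatinase granules later, in band cells. The transcription factor C/EBP epsilon is needed for the specific granule genes. Several of these genes are not restricted to neutrophils: macrophages also make matrix metalloproteinases, and Lcn2 is induced by inflammatory signals in many cell types.

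Of the 10 granule genes, 8 were higher in all 3 TMAO libraries than in any control library, Mmp9 was lower in all 3, and the groups overlapped for Mmp8. Across the 14626 genes tested, 35.6% were higher and 35.4% lower in TMAO without overlap, and since the members were chosen with this contrast in view nothing is read from their share. Their median log2 fold change was 5.46, with a range of -0.81 to 8.52, against 0.005 over all genes tested. A log2 fold change of 3 or more was reached by 2.84% of all genes tested. Together the 10 genes took 0.199%, 0.205% and 0.207% of all counts in TMAO libraries 1 to 3, against 0.0327%, 0.0323% and 0.0302% in control libraries 1 to 3. The make-up of that share also differed: Ngp held 54.8% to 57.2% of it in TMAO libraries and 1.89% to 2.78% in control libraries, whereas Mmp8 and Lcn2 together held 32.0% to 34.6% in TMAO and 88.7% to 91.0% in control libraries. In these bulk libraries, fewer cells of a type and less RNA per cell cannot be told apart.

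**Figure D1:**
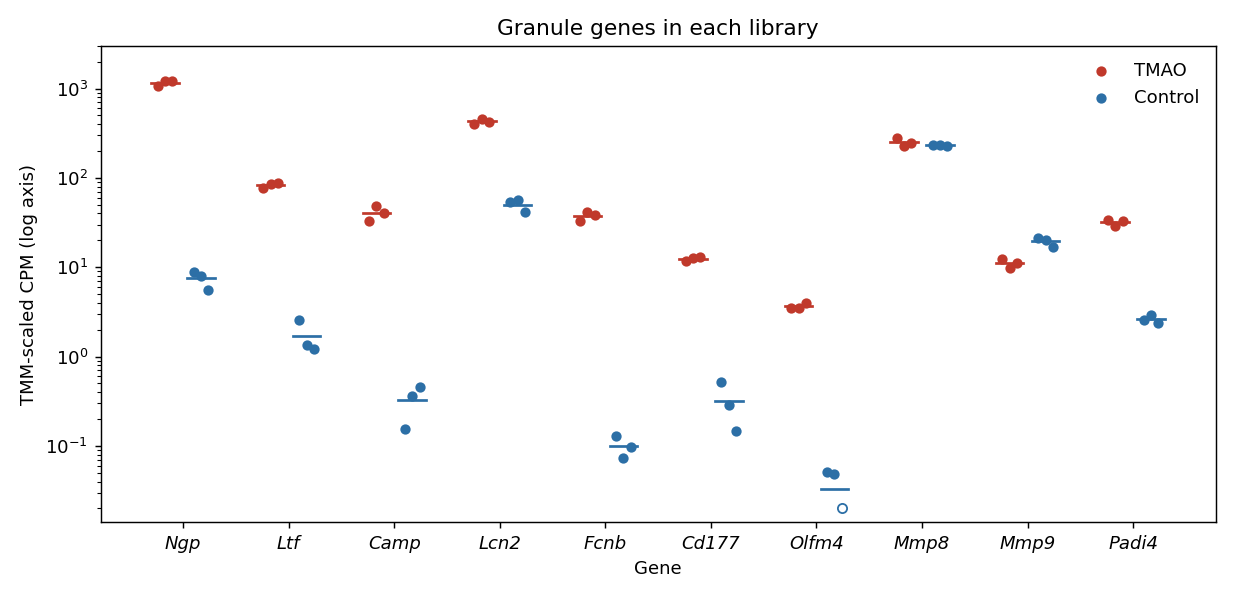
CPM of the 10 granule genes in each library (log axis), scaled by the trimmed mean of M-values, with TMAO in red to the left of Control in blue for each gene. Points are libraries, bars are means of 3 libraries, and the open circle at the bottom is a library with no counts. The groups are apart for all genes but Mmp8, and Mmp9 is the gene that is lower in TMAO.

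The 4 promoters printed here are those of Ngp, Ltf and Fcnb, which were higher in TMAO, and of Mmp8, whose groups overlapped; they show where the core letters of a C/EBP site lie in each. RefSeq gave promoters for 9 of the 10 genes, in build GRCm38.p6, an older build than the GRCm39 of the counts. Each sequence is the 250 bases before the annotated start, 5′ to 3′ on the strand of the gene, with matches to TTNNGCAA, read on both strands, in capitals.

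Ngp, chr9:110419558-110419807, plus strand: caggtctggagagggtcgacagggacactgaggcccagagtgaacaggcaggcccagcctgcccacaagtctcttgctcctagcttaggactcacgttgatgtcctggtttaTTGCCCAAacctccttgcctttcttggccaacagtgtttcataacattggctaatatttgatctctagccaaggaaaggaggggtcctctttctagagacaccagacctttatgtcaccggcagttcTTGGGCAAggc
Ltf, chr9:111019042-111019291, plus strand: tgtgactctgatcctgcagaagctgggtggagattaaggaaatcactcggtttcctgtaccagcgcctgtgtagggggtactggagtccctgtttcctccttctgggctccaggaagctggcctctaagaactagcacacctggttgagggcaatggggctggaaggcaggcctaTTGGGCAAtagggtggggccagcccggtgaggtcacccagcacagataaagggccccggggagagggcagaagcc
Fcnb, chr2:28084879-28085128, minus strand: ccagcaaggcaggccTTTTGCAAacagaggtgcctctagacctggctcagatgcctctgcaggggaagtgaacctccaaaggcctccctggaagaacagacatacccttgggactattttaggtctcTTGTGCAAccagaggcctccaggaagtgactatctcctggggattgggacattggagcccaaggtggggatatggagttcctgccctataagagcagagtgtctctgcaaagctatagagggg
Mmp8, chr9:7558179-7558428, plus strand: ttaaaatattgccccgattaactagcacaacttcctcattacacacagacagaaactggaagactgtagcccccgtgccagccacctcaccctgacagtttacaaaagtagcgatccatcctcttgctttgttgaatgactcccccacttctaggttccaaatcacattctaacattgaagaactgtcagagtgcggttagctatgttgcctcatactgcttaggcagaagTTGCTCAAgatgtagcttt

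The C/EBP letters were found in 5 of the 9 promoters (Ngp, Ltf, Lcn2, Fcnb and Mmp8), and in 9.55% of all 27025 promoters of that length. Ngp and Fcnb held 2 matches each. The match nearest the start began 11 bases before it in Ngp and 19 bases before it in Mmp8. GAGGAAGT, the letters of a PU.1 site, was found on either strand in the promoters of Olfm4 and Mmp8 and in 2.44% of all promoters, and TATAAA in those of Cd177 and Padi4 and in 12.97% of all. No motif overlapped another in these promoters. Camp held none of the 3 motifs in this window. These are matches of letters and not binding sites.

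Ngp (ENSMUSG00000032484), which encodes neutrophilic granule protein, a cystatin relative of specific granules, had 1072, 1217 and 1203 CPM in TMAO libraries 1 to 3, against 8.93, 7.999 and 5.57 CPM in control libraries 1 to 3. In TMAO it was the most abundant of the 10 genes per length and differed 155-fold (log2 fold change 7.28, SE 0.18). Ltf (ENSMUSG00000032496), the gene of the iron-binding protein lactoferrin, had 77.7, 84.8 and 87.0 CPM in TMAO libraries, against 2.55, 1.35 and 1.21 CPM in control libraries. The difference was 48.8-fold (log2 fold change 5.61, SE 0.22), and control library 1 was the highest of the controls. Camp (ENSMUSG00000038357), the gene of the antimicrobial cathelicidin, had 33.1, 48.1 and 40.6 CPM in TMAO libraries and 0.154, 0.362 and 0.460 CPM in control libraries, where it rested on 6, 15 and 19 counts. For Camp the TMAO libraries were 125-fold higher on average (log2 fold change 6.94, SE 0.26).

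Lcn2 (ENSMUSG00000026822) encodes neutrophil gelatinase-associated lipocalin, which starves bacteria of iron by binding their siderophores. Its level was 399, 461 and 428 CPM in TMAO libraries, against 53.4, 56.1 and 41.6 CPM in control libraries. The difference of 8.52-fold (log2 fold change 3.09, SE 0.13) was the smallest among the 8 genes that were higher, and Lcn2 was the one of those 8 that exceeded 10 CPM in control libraries. Fcnb (ENSMUSG00000026835), the gene of ficolin B, a lectin that starts complement, had 33.3, 41.3 and 38.1 CPM in TMAO libraries against 0.129, 0.0725 and 0.0969 CPM in control libraries. The control values of Fcnb were 5, 3 and 4 counts, and its difference was the largest of the 10 genes at 378-fold (log2 fold change 8.52, SE 0.21).

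Cd177 (ENSMUSG00000052212), a surface glycoprotein of neutrophils, had 11.8, 12.8 and 12.9 CPM in TMAO libraries and 0.515, 0.290 and 0.145 CPM in control libraries. TMAO libraries agreed closely with each other (12.5 ± 0.604 CPM, SD, n = 3), and the difference was 39.6-fold (log2 fold change 5.31, SE 0.28). Olfm4 (ENSMUSG00000022026), the gene of olfactomedin 4, which marks a subset of neutrophils, was at 3.51, 3.49 and 4.02 CPM in TMAO libraries against 0.0515, 0.0483 and 0 CPM in control libraries. The controls held 2, 2 and 0 counts of Olfm4, so its 110-fold difference (log2 fold change 6.67, SE 0.44) had the widest error of the 10.

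The metalloproteinase genes stood apart from the other members. Mmp8 (ENSMUSG00000005800), neutrophil collagenase, stored in specific granules, had 277, 226 and 246 CPM in TMAO libraries and 232, 236 and 227 CPM in control libraries, and TMAO library 2 lay below every control. Its fitted log2 fold change was 0.11 (SE 0.09) on the scale of CPM, while its mean per length was 212 ± 37.3 TPM in TMAO and 225 ± 6.34 TPM in control libraries (SD, n = 3 each), so the sign depended on the scaling. Mmp9 (ENSMUSG00000017737), gelatinase B, the enzyme that gelatinase granules are named for, had 12.3, 9.74 and 11.2 CPM in TMAO libraries against 21.3, 20.4 and 16.7 CPM in control libraries. It was the one member below its controls in every library, 1.76-fold lower in TMAO (log2 fold change -0.81, SE 0.14). Padi4 (ENSMUSG00000025330), peptidylarginine deiminase 4, which citrullinates histones in neutrophil extracellular traps, had 34.1, 29.3 and 32.5 CPM in TMAO libraries and 2.55, 2.92 and 2.40 CPM in control libraries. That made Padi4 12.2-fold higher (log2 fold change 3.60, SE 0.13).

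Levels were compared between genes per length, as TPM over the longest annotated transcript. In TMAO libraries Ngp led with 1945 ± 50.5 TPM, followed by Lcn2 with 638 ± 4.57, Mmp8 with 212 ± 37.3 and Camp with 109 ± 12.5 TPM (SD, n = 3). Fcnb with 65.4 ± 2.35 TPM and Ltf with 62.0 ± 2.76 TPM came next, and these were the only neighbours in the order whose libraries overlapped. Padi4 at 21.7 ± 3.19, Cd177 at 9.44 ± 0.350, Mmp9 at 7.18 ± 1.35 and Olfm4 at 2.68 ± 0.274 TPM followed. In control libraries Mmp8 led with 225 ± 6.34 TPM, ahead of Lcn2 with 86.1 ± 10.6 TPM (SD, n = 3). Ngp and Mmp9 were level there at 14.4 ± 3.19 and 14.4 ± 1.63 TPM, and every other member was below 3 TPM in every control library. Neighbours in that order also overlapped for Padi4 with Ltf, for Ltf with Camp and for Cd177 with Fcnb, and Olfm4 was lowest at 0.0275 ± 0.0240 TPM. Mmp8 and Lcn2 thus stood above the other members in control libraries, as they did in TMAO libraries apart from Ngp.

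**Figure D2:**
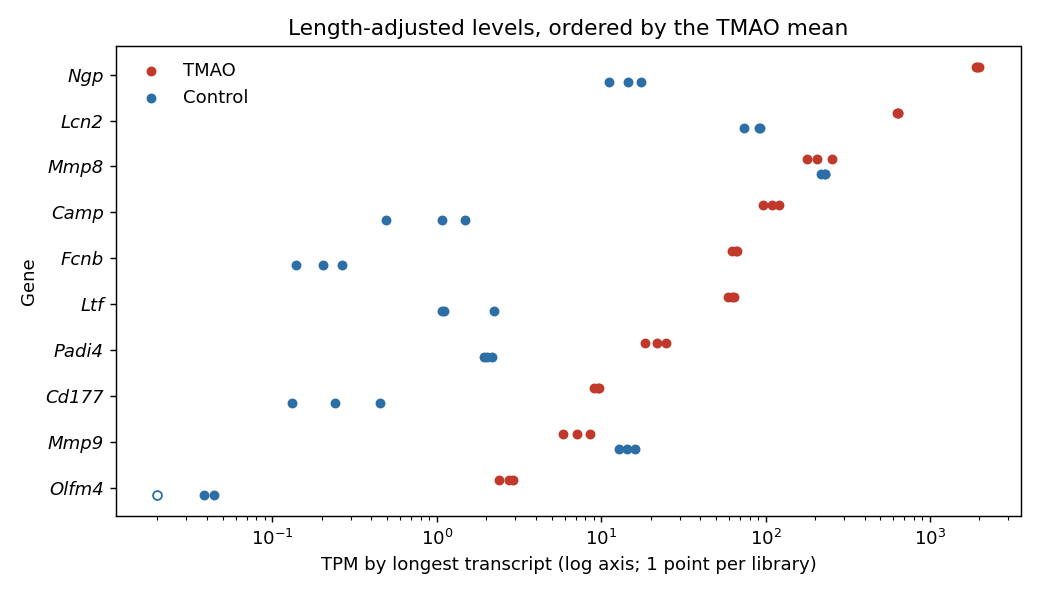
TPM of the 10 genes by longest transcript (log axis), 1 point per library, ordered from top to bottom by the TMAO mean, with TMAO in red above Control in blue. The open circle is a library with no counts. Ngp leads in TMAO at 1945 TPM on average and Mmp8 in Control at 225 TPM.

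The TMAO libraries differed among themselves by transcript length. Camp, Fcnb, Ngp and Lcn2, the 4 members with transcripts under 2000 bases, were lowest in TMAO library 1 and highest in TMAO library 2. Their median deviation from the group mean of log2 CPM was -0.14 in library 1, 0.12 in library 2 and 0.02 in library 3. Over the 6 longer members the medians were 0.02, -0.10 and 0.04, and these members were split. Mmp8, Mmp9 and Padi4 were highest in TMAO library 1, whereas Ltf and Cd177 were lowest there and Olfm4 was below its mean. A tilt by length was seen across all genes tested. The shortest 20% deviated by a median of -0.17 in TMAO library 1 and 0.17 in library 2, and the longest 20% by 0.14 and -0.09. Between the groups too, short genes were higher, with a median log2 fold change of 0.49 in the shortest 20% of genes tested and -0.53 in the longest 20%. In an alternative chosen after seeing the data, the trend of level on length was removed in each library. The log2 fold changes were then 6.45 for Camp, 6.89 for Ngp, 8.12 for Fcnb, 2.73 for Lcn2 and -0.02 for Mmp8. Of the 10 members only Mmp8 changed sign.

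**Figure D3:**
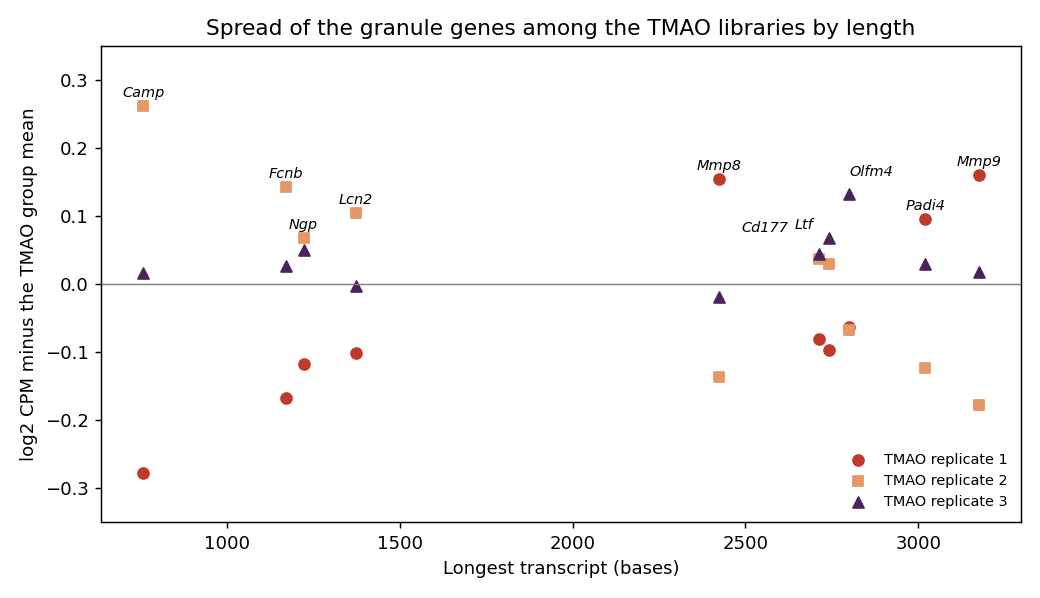
Deviation of log2 CPM from the mean of the 3 TMAO libraries (vertical axis) against the longest transcript in bases (horizontal axis) for the 10 genes, with 1 marker shape and colour per TMAO library. The 4 short transcripts lie lowest in TMAO replicate 1, as do the longer Ltf and Cd177, and Mmp8, Mmp9 and Padi4 lie highest in it.

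Other genes of neutrophil differentiation were compared by the edgeR quasi-likelihood test, with p-values adjusted over all 14626 genes, of which 33.0% were called higher and 32.7% lower in TMAO at an adjusted p under 0.05. All 9 genes of the azurophil and promyelocyte list rose, with a median log2 fold change of 8.99. Elane, neutrophil elastase, averaged 234 ± 35.2 CPM in TMAO and 0.101 ± 0.103 CPM in control libraries (SD, n = 3 each; log2 fold change 11.17, edgeR adjusted p = 5.17e-09). The controls held 8, 0 and 4 counts of Elane, and its log2 fold change was 12.14 without control replicate 1 and 10.58 without control replicate 2. Mpo, myeloperoxidase, averaged 158 ± 14.9 CPM in TMAO and 0.0413 ± 0.0149 CPM in control libraries (edgeR adjusted p = 3.92e-10). Prtn3, proteinase 3, rose 198-fold, while Ctsc, the protease that activates the serine proteases and that macrophages also make, rose 1.73-fold. Per length Elane stood at 484 TPM on average in TMAO libraries, between Lcn2 and Mmp8.

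The other proteins listed for specific and gelatinase granules did not move together. Of 12 further specific granule genes, 6 rose, 2 fell and 4 were not called, and the median log2 fold change was 0.27. The most abundant of them are shared with macrophages. Lyz2, lysozyme, was at 37357 ± 4499 CPM in TMAO and 37023 ± 2335 CPM in control libraries and was not called (edgeR adjusted p = 0.923, log2 fold change 0.01), and Cyba, the small subunit of the NADPH oxidase, was not called either (edgeR adjusted p = 0.601). With the length trend removed Lyz2 and Cyba were called lower, with log2 fold changes of -0.37 and -0.40, and 5 genes of this list then fell. Cybb, the large oxidase subunit, fell to 858 ± 46.5 CPM in TMAO, against 2785 ± 243 CPM in control libraries, and Itgb2, the beta chain of leukocyte integrins, fell with a log2 fold change of -0.98. Chil3, a chitinase-like protein, and Pglyrp1, a peptidoglycan-binding protein, both named after their values were seen, had the largest log2 fold changes of this list: Chil3 rose 36.4-fold, and Pglyrp1 averaged 34.5 ± 7.30 CPM in TMAO and 0.909 ± 0.207 CPM in control libraries.

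Of 6 further gelatinase granule genes, 2 rose, 1 fell and 3 were not called, at a median log2 fold change of 0.47. Adam8, a membrane protease, rose 1.73-fold and Fpr1, a receptor for formyl peptides, 2.75-fold. Slc11a1, a metal transporter, was at 516 ± 30.7 CPM in TMAO and 589 ± 0.746 CPM in control libraries (edgeR adjusted p = 0.0598) and was called lower with library size as the only scaling, by DESeq2, by limma-voom and with the length trend removed (adjusted p 0.00709 to 0.143 over the alternatives). Fpr2, a receptor for cathelicidin peptides among others, was not called (edgeR adjusted p = 0.0513, log2 fold change 0.32), and 8 of 14 alternatives called it higher, with adjusted p-values of 0.00617 to 0.336 over all 14. Hpse, heparanase, named after its value was seen, fell with a log2 fold change of -2.01.

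Genes of the late neutrophil list were mostly higher, and the list as a whole does not mark segmented cells alone. Of 17 listed, Mme could not be placed by symbol and Alpl was too low to test; of the 15 tested, 14 rose and 1 fell, with a median log2 fold change of 4.12 and summed levels of 2320 to 3264 CPM in TMAO and 227 to 254 CPM in control libraries. S100a9 and S100a8, the subunits of calprotectin, rose 106-fold and 32.2-fold. Most of the TMAO sum of this list was these 2 genes, at 1851 ± 304 and 733 ± 189 CPM (SD, n = 3). S100a9 had 1513, 2102 and 1937 CPM in TMAO libraries against 20.5, 18.8 and 12.8 CPM in control libraries, and at 7248 TPM on average it exceeded Ngp in TMAO. Csf3r, the receptor for granulocyte colony-stimulating factor, was the gene that fell, to 102 ± 10.7 CPM in TMAO, against 167 ± 7.09 CPM in control libraries (edgeR adjusted p = 9.61e-05). Most of the control sum of this list was Csf3r. Mxd1 rose 1.28-fold (edgeR adjusted p = 0.0109), a call lost without control replicate 3 (0.0515). Cxcr2 and Ly6g, receptor and surface marker of mature neutrophils named after their values were seen, were low in both groups: Cxcr2 had 6.74, 5.199 and 6.47 CPM in TMAO libraries against 0.463, 0.459 and 0.218 CPM in control libraries, and Ly6g had 28, 18 and 24 counts in TMAO libraries against 2, 0 and 2 counts in control libraries. Ly6g has close relatives beside it, and reads shared with them may be split.

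**Figure D4:**
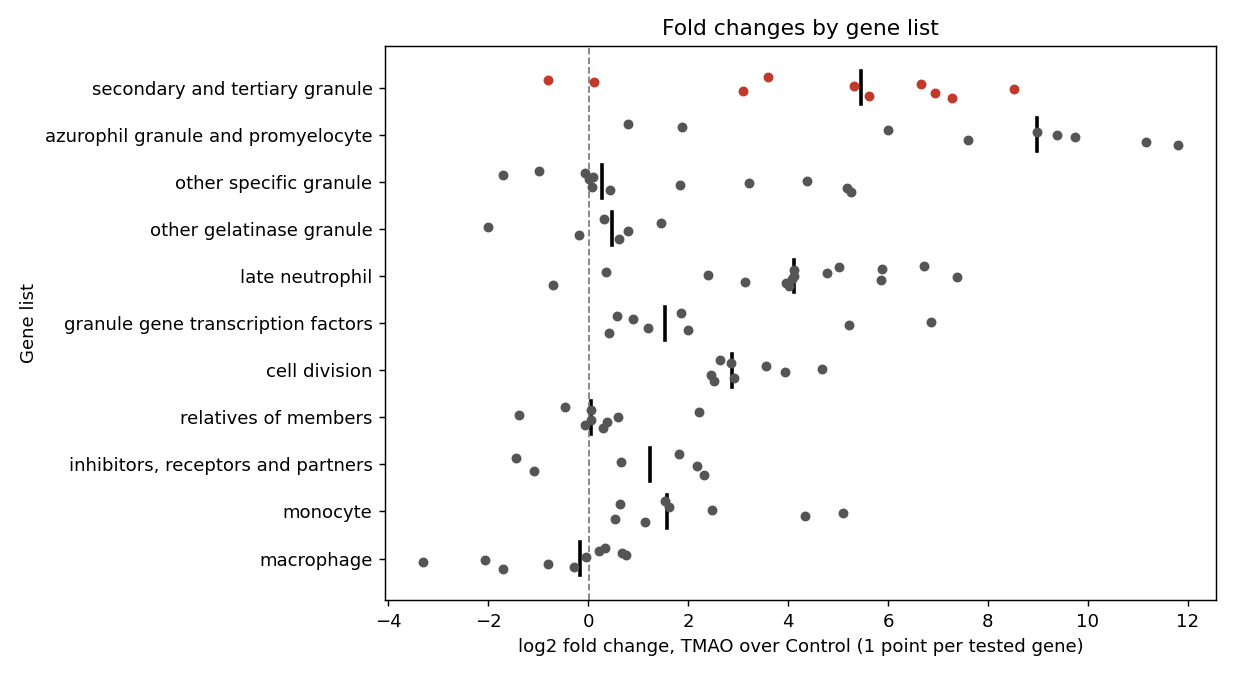
Log2 fold change of TMAO over Control (horizontal axis) for each tested gene, by gene list (vertical axis), with the 10 secondary and tertiary granule genes in red. Black bars are list medians and the dashed line is the median of all genes tested, 0.005. The azurophil list has a median of 8.99, the 10 granule genes 5.46 and the late neutrophil list 4.12. The other specific granule list has a median of 0.27 and the other gelatinase granule list 0.47.

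All 8 transcription factors listed for granule genes rose, where 33.0% of all genes tested were called higher. Cebpe, C/EBP epsilon, had the highest fold change among the C/EBP members, at 27.2 ± 1.68 CPM in TMAO and 0.726 ± 0.0975 CPM in control libraries (SD, n = 3 each; log2 fold change 5.22, SE 0.15, edgeR adjusted p = 5.3e-09). Gfi1, a repressor needed for granulocytes, was at 4.19 ± 0.798 CPM in TMAO and 0.0323 ± 0.0279 CPM in control libraries, on 4 control counts (log2 fold change 6.86, SE 0.45). Cebpb and Cebpd, which act in inflammation and late granulopoiesis, rose 4.01-fold and 2.29-fold. Spi1, which encodes PU.1, rose 1.86-fold, Runx1 1.48-fold and Cebpa 1.33-fold. Klf5 rose 3.68-fold and averaged 1.14 CPM in TMAO libraries. All 8 cell division genes rose as well, with a median log2 fold change of 2.88; Mki67 averaged 146 ± 24.2 CPM in TMAO and 25.5 ± 2.44 CPM in control libraries. Its log2 fold change was 2.52, and 3.28 with the length trend removed. Top2a rose 7.51-fold, Cdk1 5.46-fold and Cdc20 11.7-fold.

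Relatives of the members moved in both directions. Of the 14 listed, 9 were tested, of which 2 rose, 2 fell and 5 were not called, at a median log2 fold change of 0.06. Among the metalloproteinases, Mmp12, macrophage elastase, fell to 491 ± 26.1 CPM in TMAO, against 1276 ± 46.4 CPM in control libraries, Mmp13, a collagenase like Mmp8, rose 4.65-fold, and Mmp14 was not called (edgeR adjusted p = 0.509, log2 fold change 0.06). Mmp19 fell with a log2 fold change of -0.47 (edgeR adjusted p = 0.0336), and that call was lost without TMAO replicate 3 or any 1 control replicate (adjusted p up to 0.0764). Of 8 inhibitors, receptors and partners, 6 were tested: Timp1, the inhibitor that binds Mmp9, rose 4.98-fold, Pecam1, which binds Cd177, rose 3.51-fold, and Timp2 and Lrp1, which takes up lactoferrin and Mmp9, fell with log2 fold changes of -1.08 and -1.44. Lrp1 has a long transcript of 14888 bases, and its log2 fold change was -0.45 with the length trend removed. Timp3 rose too, and Slc22a17, proposed as a receptor for Lcn2, was not called.

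Genes that lie next to the members did not all move with them. Camp, Ngp, Ltf and Mmp8 are on chromosome 9, Lcn2, Fcnb and Mmp9 on 2, Padi4 on 4, Cd177 on 7 and Olfm4 on 14. Of the 20 nearest protein-coding neighbours in RefSeq, 15 were tested, of which 9 rose, 2 fell and 4 were not called, with a median log2 fold change of 0.89. Over all genes tested, 33.0% were called higher and 32.7% lower, with a median of 0.005. Ccrl2, a chemerin-binding receptor beside Ltf, named after its value was seen, rose with a log2 fold change of 2.96 (SE 0.09, edgeR adjusted p = 6.07e-09). Both neighbours of Mmp8, Mmp10 and Mmp27, were called higher, with log2 fold changes of 1.29 and 1.81, although the groups overlapped for Mmp8 itself. Both neighbours of Camp were called higher, Nme6 with a log2 fold change of 1.11 and Cdc25a with 0.89, and those of Ngp went opposite ways, Ptpn23 with 1.25 and Klhl18 with -0.50. Slc12a5, beside Mmp9, was called lower with -1.28. No neighbour's span overlapped that of a member.

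Markers of other cells moved in the same libraries, and their part in the differences of the granule genes was not tested. Calls for these markers stand beside 33.0% of all genes tested called higher and 32.7% called lower. The macrophage markers were high in both groups, with summed levels of 6509 to 6788 CPM in TMAO and 8622 to 9188 CPM in control libraries. Of the 10, 4 rose (C1qa, C1qb, C1qc and Mrc1) and 5 fell (Mertk, Fcgr1, Adgre1, Cd68 and Csf1r), and without control replicate 2 the number that rose was 2. The largest rise was a log2 fold change of 0.75, for C1qa. The largest falls were -3.31 for Mertk and -2.07 for Fcgr1. C1qb, a chain of complement C1q, averaged 1101 ± 189 CPM in TMAO and 690 ± 71.9 CPM in control libraries. Cd68, a lysosomal glycoprotein, fell to 1324 ± 61.2 CPM in TMAO, against 2324 ± 168 CPM in control libraries. Adgre1, which encodes F4/80, fell to 526 ± 67.3 CPM in TMAO, against 1705 ± 56.5 CPM in control libraries. Csf1r fell with a log2 fold change of -0.28 (edgeR adjusted p = 0.0303), a call lost with the length trend removed and without TMAO replicate 2, TMAO replicate 3, control replicate 1 or control replicate 3 (adjusted p up to 0.991). All 8 monocyte markers rose, with sums of 809 to 851 CPM in TMAO and 220 to 279 CPM in control libraries, with F13a1 20.2-fold, Plac8 34.2-fold, Ly6c2 2.21-fold and Cx3cr1 1.54-fold higher. All 3 stem and progenitor markers rose, with sums of 17.6 to 18.4 CPM in TMAO and 3.25 to 4.63 CPM in control libraries, and Kit rose to 5.39 ± 0.359 CPM in TMAO, against 0.416 ± 0.177 CPM in control libraries, Flt3 6.04-fold and Cd34 3.51-fold. Of the 6 B cell markers 5 rose, with sums of 32.5 to 34.8 CPM in TMAO and 9.06 to 11.4 CPM in control libraries. Ighm rose 2.895-fold, Igkc had 723 counts in TMAO and 2 in control libraries, and Cd79b was not called (edgeR adjusted p = 0.677, log2 fold change -0.11). Cd79a rose with a log2 fold change of 3, or 4.41 without control replicate 3.

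Of 8 erythroid and megakaryocyte markers 4 were tested, of which 3 rose and 1 fell, with sums of 319 to 505 CPM in TMAO and 42.5 to 62.7 CPM in control libraries. Most of that sum was Pf4, a platelet chemokine, at 383 ± 94.3 CPM in TMAO and 50.9 ± 10.6 CPM in control libraries. Itga2b rose 10.5-fold but averaged only 16.4 CPM in TMAO and 1.55 CPM in control libraries, and Gp9 averaged 1.87 and 0.0827 CPM. Hbb-bs was the one that fell, on 26 counts in TMAO and 76 in control libraries (edgeR adjusted p = 0.0212), and the call was lost without TMAO replicate 1, TMAO replicate 3, control replicate 1 or control replicate 3 (adjusted p up to 0.086). All 3 tested eosinophil markers of 6 rose, with sums of 11.4 to 13.5 CPM in TMAO and 2.65 to 3.70 CPM in control libraries, and Ear1 and Ear6 had no counts in the controls. Prg2 had 756 counts in TMAO and 3 in control libraries, and Siglecf rose 2.40-fold. Ear2, whose reads may be shared with close relatives, rose 1.55-fold (edgeR adjusted p = 0.0296), a call lost with the length trend removed and without TMAO replicate 2, TMAO replicate 3, control replicate 1 or control replicate 3 (adjusted p up to 0.542). Mast cell and basophil markers summed to 7.32 to 9.88 CPM in TMAO and 0.145 to 0.618 CPM in control libraries, where Mcpt8, Ms4a2 and Prss34 had no counts. Of these Hdc was tested and rose 23.5-fold, and Fcer1a could not be placed by symbol. Without TMAO replicate 1 or any 1 control replicate, 3 of them were called higher. T and NK cell markers summed to 1.87 to 2.82 CPM in TMAO and 0 to 0.0484 CPM in control libraries, with Nkg7 tested and called higher; Cd3e had no counts in TMAO, and Cd3d, Cd3g, Trac, Nkg7 and Ncr1 had none in control libraries. The 4 epithelial markers, listed because Lcn2, Olfm4 and Camp are also made by epithelia, were low, at 2.71 to 4.59 CPM in TMAO and 3.16 to 4.06 CPM in control libraries, and 1 of them, Cdh1, rose 3.41-fold. Krt8, Epcam and Krt18 were not called (edgeR adjusted p = 0.136, 0.355 and 0.65), and without TMAO replicate 2 Krt8 and Epcam were called lower.

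Genes nearest the mean profile of the 10 members over the 6 libraries were sought by root mean square distance of log2 CPM, centred on each gene's mean. This likeness rests mostly on the size of the difference between the groups. The mean profile includes Mmp8 and Mmp9, and its difference between groups was 4.65 on the log2 scale. Kif2c, a microtubule depolymerase of mitosis, was nearest at a distance of 0.155, with 10.9 ± 0.0695 CPM in TMAO and 0.445 ± 0.0160 CPM in control libraries (SD, n = 3 each). Egr1, an immediate early transcription factor, was next at 0.170, with 191 ± 22.9 CPM in TMAO and 6.94 ± 0.827 CPM in control libraries. Il10, the gene of an anti-inflammatory cytokine, lay at 0.173, Gp9, a platelet glycoprotein, at 0.197, and Rtkn2 at 0.206. Rtkn2 had 36 counts in TMAO and 0 in control libraries, a difference of at least 12.8-fold when the controls together are set to 3 counts. Its fitted log2 fold change was 6.64 (SE 1.09), so its nearness depends on the prior count. Among the members, Cd177 lay nearest the mean profile, at 0.52, ahead of Padi4 at 0.55 and Ltf at 0.56, and Mmp9 lay farthest, at 2.73. Every member thus lay farther from the mean profile than the genes named here, so they resemble an average and no single member.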

How the data were processed

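RNA-seq counts of 6 libraries, 3 TMAO and 3 control, were analysed. Per the labels' protocols, oligo(dT)-selected RNA was fragmented and primed with random hexamers for paired-end sequencing. The authors deposited raw counts per Ensembl gene, and per the submitters' processing notes the genome build was GRCm39; no aligner, counting tool or strand setting is named there or in the labels. Of 25751 gene IDs, 25386 were matched to a symbol. The members and the gene lists were chosen with earlier results of these data known.

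Genes with too few counts were removed by edgeR filterByExpr (minimum count 10), which left 14626. Counts were scaled by the trimmed mean of M-values (TMM) and tested with edgeR 4.0.16 (quasi-likelihood F test, Benjamini-Hochberg threshold 0.05) in R 4.3.3. The test was checked on simulated counts with far fewer changed genes than were called here, so that check does not cover changes this widespread. CPM are TMM-scaled. TPM used the longest GENCODE transcript of build GRCm38, an older build than that of the counts. Deviations and profiles used log2 CPM with a prior count of 0.5. A gene was named outside the members if among the 4 with the highest mean CPM of its list, if a listed transcription factor, or if among the 5 nearest the members' profile. Genes outside this rule are marked in the text, or named to complete a short list, as neighbours or as markers at 0.

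Alternatives were RLE scaling, library size only, no count filter, at least 1 CPM in 3 libraries, DESeq2 1.42.0, limma-voom (limma 3.58.1), a replicate block, each library left out and the length trend removed. Library depth limits precision only for genes of a few counts.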

Additional observations from a re-analysis of the deposited data

How the results depend on the processing

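Of 140 log2 fold changes of the 10 granule genes recomputed under 14 alternatives, 136 moved by less than the spread between replicates. The other 4 came from removing the length trend, chosen after seeing the data: Ngp 6.89, Lcn2 2.73, Fcnb 8.12 and Mmp8 -0.02, which changed sign. Camp went from 6.94 to 6.45 in that alternative, which was within the spread of its replicates. Mmp8 ranged from -0.02 to 0.18 and Mmp9 from -0.92 to -0.73 over all alternatives. Of the 70 genes of other lists that the text names under its rule or after their values were seen, 59 kept their side of the threshold throughout. Removing the length trend turned Lyz2 to -0.37, Cyba to -0.40 and Csf1r to 0. It also gave 5 lower genes among other specific granule genes and 1 among epithelial markers. Other gelatinase granule genes called lower were 2 by library size only, DESeq2, limma-voom and with the length trend removed, against 1 as reported. Without a count filter, more genes were tested and the counts called higher were 6 for eosinophil, 3 for mast cell and basophil, and 2 for T and NK cell markers. At least 1 CPM in 3 libraries left 0 erythroid and megakaryocyte markers called lower. Leaving out 1 library gave 4392 to 4955 genes higher and 4225 to 4976 lower. It gave 2 to 4 eosinophil markers higher, 1 to 3 mast cell and basophil markers higher, 2 to 4 macrophage markers higher, 0 to 2 erythroid and megakaryocyte markers lower, 0 to 2 epithelial markers lower and 1 to 2 relatives lower. The cause of these moves was otherwise not tested. With the replicate block, genes called higher were 4887 and genes called lower 4836. Libraries of the same number correlated at 0.024, 0.10 and -0.04 in their deviations. Whether libraries of the same number share a mouse, culture or batch is not stated in the labels and was not tested. Members with 0 to 20 control counts (Fcnb, Olfm4, Camp, Cd177) are limited by depth in the controls, as are Elane, Mpo, Gfi1, Prg2 and Igkc.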
